A study of Mus musculus with 8 samples.

Results

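Foreign compounds that are not handled by cytochrome P450 enzymes alone are oxidised, reduced, hydrolysed or conjugated by several other enzyme families, and the expression of these families was measured in lungs of mice injected with naphthalene. The genes were chosen by symbol, as all aldehyde dehydrogenases (Aldh), alcohol dehydrogenases (Adh), flavin-containing monooxygenases (Fmo), aldehyde oxidases (Aox), aldo-keto reductases (Akr), carboxylesterases (Ces), sulfotransferases (Sult) and UDP-glucuronosyltransferases (Ugt1a and Ugt2) whose name continues with a digit or with a or b, with the exception of Sult1a1. This gave 113 genes of the 22244 in the count table. The mice were adult male C57BL/6J animals, a standard inbred strain, and no genetic change was named for any of them. The control group of 4 mice had no treatment, and the other group of 4 mice had been injected with naphthalene. Neither the dose nor the vehicle nor the time between injection and sampling was given in the sources used here, so an effect of the injection and an effect of naphthalene cannot be told apart. RNA came from the right cranial lobe of each lung and was sequenced as stranded total RNA, 1 library per mouse.

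Naphthalene is an aromatic hydrocarbon that P450 enzymes of the club cells, secretory cells of the mouse airway, turn into a reactive epoxide. The naphthols and dihydrodiols that follow from the epoxide are substrates for later enzymes. Glucuronosyltransferases and sulfotransferases attach a sugar acid or a sulfate group that makes the product easier to excrete. Some aldo-keto reductases oxidise aromatic dihydrodiols. Aldehyde dehydrogenases turn aldehydes, among them retinaldehyde and products of lipid peroxidation, into acids. Carboxylesterases cleave esters of drugs and lipids, and flavin-containing monooxygenases add oxygen to nitrogen or sulfur atoms.

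Totals ran from 10743842 to 16792306 counts per library, and 14192 genes had enough counts to be tested. Levels are given in CPM, the count of a gene relative to the total of its library after TMM scaling, with means ± SD over the 4 libraries of a group. The markers of alveolar and airway cells were present in the control lungs, with mean levels of 6452 CPM for Sftpc, 1472 CPM for Ager and 4785 CPM for Scgb1a1. The summed level of 10 club cell markers was 5379 to 10990 CPM in the controls and 1078 to 2761 CPM after naphthalene, and all 9 of its tested genes fell. A list of 8 ciliated cell markers summed to 674.6 to 984.9 CPM in the controls and to 97.87 to 233.0 CPM after naphthalene, with 7 genes lower. All 5 T and B cell markers fell, from a sum of 71.09 to 97.75 CPM to one of 21.65 to 37.45 CPM, and 3 of 9 fibroblast markers fell (2874 to 3304 CPM against 2657 to 2880 CPM). In the other direction, 3 of 5 alveolar type 1 markers rose (2932 to 3661 CPM against 3495 to 4190 CPM), as did 3 of 7 alveolar type 2 markers (14290 to 17260 CPM against 16140 to 19880 CPM). Over all tested genes 14.1% were higher and 14.6% lower. Neutrophil markers summed to 381.6 CPM in control 3 and 59.14 to 89.52 CPM in the other controls. After naphthalene they summed to 199.0 to 480.7 CPM, with 1 of 4 tested genes higher. Erythroid markers, with 0 genes called, stood at 1258 CPM in control 4, 2963 CPM in naphthalene 3 and 631.5 CPM in naphthalene 4. The other libraries held 31.47 to 111.5 CPM. In bulk tissue, fewer cells of a type and less RNA per cell cannot be told apart, and the part of these cell markers in the results that follow was not tested.

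One property of the count table bears on which enzymes were measured at all. Of 1157 protein-coding genes matched to mouse chromosome 1, 1144 (98.9%) were listed at 0 in all 8 libraries, against 5.78% of 18831 such genes on the chromosomes other than 1 and Y. Ncl, Hspd1 and Sf3b1, which nearly all cells express, were among those listed at 0. The 21 family members on chromosome 1 were therefore treated as not measured. They comprise all 4 Aox genes, the 9 Ugt1a genes, 6 of the 7 Fmo genes, Aldh9a1 and Akr1cl. A further 3 members on other chromosomes, Ces2h, Sult2a2 and Ugt2a2, were also listed at 0, 46 members had counts too low to test, and 43 members were tested.

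Among the 43 tested members, 6 were higher and 15 were lower after naphthalene, and 22 did not pass the edgeR quasi-likelihood test at an adjusted p of 0.05. This is 48.8% of the tested members past the threshold, against 28.7% of all tested genes (14.1% higher and 14.6% lower). The filter on low counts can admit a gene through the group in which it is high, so these counts describe the genes and were not used as a test. The levels of the groups did not overlap for 19 of the 43 members (44.2%), against 28.6% of all tested genes. A change of at least 2-fold and past the test was seen for 10 members, and 8.3% of all tested genes met that rule. The median log2 fold change was -0.31 over the members and 0.01 over all tested genes.

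The share of tested members called was 85.7% for carboxylesterases and 50% for aldo-keto reductases, against 28.7% of all tested genes. It lay nearer to that share for aldehyde dehydrogenases (35.3%), alcohol dehydrogenases (33.3%) and sulfotransferases (33.3%). Of 7 tested carboxylesterase genes 6 fell and 0 rose, with a median log2 fold change of -1.15. The 12 tested aldo-keto reductase genes held 4 that rose and 2 that fell, with a median of -0.08. Among 17 tested aldehyde dehydrogenase genes 2 rose and 4 fell, with a median of -0.26. Of the remaining tested members, 1 of 3 alcohol dehydrogenases, 1 of 3 sulfotransferases and the single tested monooxygenase fell.

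**Figure D1:**
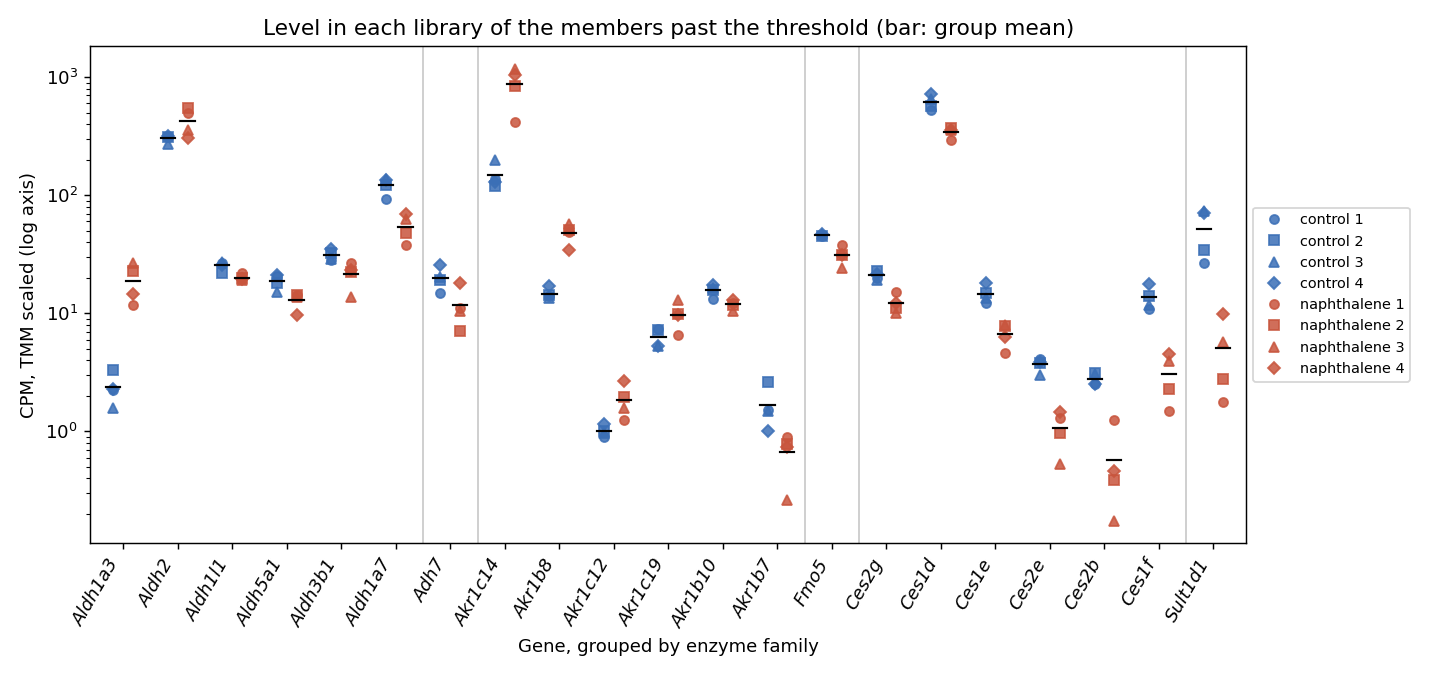
Level in each library, in CPM after TMM scaling on a log axis, of the 21 enzyme genes past the threshold, grouped by family, with a bar for each group mean. Akr1c14, Akr1b8 and Aldh1a3 lie higher in all 4 naphthalene libraries than in any control, and the 6 carboxylesterase genes and Sult1d1 lie lower in all 4.

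In CPM, not scaled for gene length, aldehyde dehydrogenases made up the largest summed level of the families. It was 2136 ± 227.7 CPM in the controls and 1898 ± 156.3 CPM after naphthalene (n = 4 per group). Aldh1a1, which oxidises retinaldehyde to retinoic acid, held 55.9% of the control sum and 49.4% of the naphthalene sum. Its level was 910.4, 1150.5, 1363 and 1357 CPM in controls 1 to 4 and 722, 983, 1104 and 938 CPM in naphthalene libraries 1 to 4. The groups overlapped, and the difference did not pass the test (log2 fold change -0.35, SE 0.19, adjusted p = 0.125).

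Aldh1a7, a close mouse relative of Aldh1a1 that lies near it on chromosome 19, fell. Its controls stood at 92.9, 122, 138 and 134 CPM and its naphthalene libraries at 38.2, 47.4, 62.6 and 68.9 CPM. Every naphthalene library lay below every control, a 2.25-fold lower mean (log2 fold change -1.17, SE 0.23, edgeR adjusted p = 0.000951). The CPM ratio of Aldh1a7 to Aldh1a1 was 0.0989 to 0.106 in the controls and 0.0483 to 0.0734 after naphthalene, so the pair did not move in proportion. The transcripts share a small part of their sequence: 7.49% of the 50-base windows of Aldh1a7 also occur in Aldh1a1.

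Aldh1a3, which like Aldh1a1 oxidises retinaldehyde, went the other way and rose. Control levels were 2.24, 3.34, 1.58 and 2.29 CPM, and naphthalene levels were 11.7, 22.6, 26.5 and 14.6 CPM. The groups were far apart, with means of 2.36 ± 0.726 and 18.9 ± 6.89 CPM, a 7.98-fold rise (log2 fold change 2.97, SE 0.34, edgeR adjusted p = 7.19e-05). Aldh1a2, the retinaldehyde dehydrogenase of mesenchymal and mesothelial cells, was 25.9 to 47.9 CPM in the controls and 24.3 to 35.4 CPM after naphthalene, and did not pass (log2 fold change -0.43, adjusted p = 0.104). It passed when control 3, its lowest control, was left out (log2 fold change -0.59, adjusted p = 0.0109). Control 3 was also the lowest control for the summed level of 4 mesothelial markers, at 203.2 CPM against 260.3 to 291.9 CPM in the other controls and 198.9 to 271.6 CPM after naphthalene, with 1 of the 4 genes lower, and its part in the Aldh1a2 values was not tested. In CPM, not scaled for gene length, Aldh1a3 was 0.0468 to 0.074 of Aldh1a2 in the controls and 0.375 to 0.944 of it after naphthalene. Per kb of exon the means of Aldh1a3 and Aldh1a2 were 0.533 and 17.7 CPM per kb in the controls. After naphthalene they were 4.25 and 13.2 CPM per kb. The sum of the 4 Aldh1a genes, which is mostly Aldh1a1, was 1359 CPM in the controls and 1040 CPM after naphthalene.

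Aldh2, the mitochondrial enzyme that clears acetaldehyde, was called higher, but not in every mouse. It measured 313, 309.8, 272 and 318 CPM in the controls and 499, 547, 360.0 and 303 CPM in naphthalene libraries 1 to 4. Naphthalene 1 and 2 stood well above the controls, naphthalene 3 less so, and naphthalene 4 lay within their range (log2 fold change 0.49, SE 0.21, edgeR adjusted p = 0.0474). The call was lost in 9 of 17 alternative analyses, with an adjusted p of 0.0935, 0.1, 0.104 and 0.0867 without control 1, 2, 3 or 4, 0.0785 without naphthalene 1 and 0.145 without naphthalene 2. The summed level of the 6 endothelial markers also differed among the same 4 libraries, at 3022, 2284, 1716 and 1396 CPM in naphthalene 1 to 4 against 2513 to 2895 CPM in the controls, with 1 of its 6 genes lower. Its part in the Aldh2 result was not tested.

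Smaller decreases were seen in 3 more aldehyde dehydrogenases. Aldh5a1, the succinate semialdehyde dehydrogenase of GABA breakdown, was 20.7, 17.9, 15.3 and 21.1 CPM in the controls and 14.4, 14.2, 13.6 and 9.71 CPM after naphthalene (log2 fold change -0.53, SE 0.17, adjusted p = 0.0269). Aldh3b1, which acts on lipid-derived aldehydes, was 28.3, 32.6, 28.8 and 35.4 CPM against 26.7, 22.2, 13.9 and 23.2 CPM (log2 fold change -0.54, SE 0.22, adjusted p = 0.0400). Aldh1l1, a folate enzyme that oxidises formyltetrahydrofolate, was 26.6, 22.1, 27.2 and 25.9 CPM against 21.8, 19.9, 19.2 and 19.5 CPM (log2 fold change -0.34, SE 0.08, adjusted p = 0.0355). In all 3 the groups did not overlap, although the margin between the highest naphthalene and lowest control library was small. Over all genes, 2929 to 3042 passed without control 1, 2 or 4 or naphthalene 2 or 3, against 4075 with all libraries. Each of these 3 calls stood near the threshold and was lost when some single libraries were left out. Aldh5a1 lost it when control 1, 2 or 4 or naphthalene 3 was omitted (adjusted p up to 0.0835), Aldh3b1 without control 1, 2, 3 or 4 or naphthalene 2 or 3 (up to 0.112), and Aldh1l1 without control 1, 3 or 4 or naphthalene 2, 3 or 4 (up to 0.092).

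The other aldehyde dehydrogenases did not pass the test with all libraries. Aldh3a2, which oxidises fatty aldehydes, was 142, 136, 137 and 134 CPM in the controls and 145, 147, 149 and 143 CPM after naphthalene, without overlap but with a small difference (log2 fold change 0.09, SE 0.02, adjusted p = 0.379). Aldh3a1, an enzyme for aromatic and lipid aldehydes that is prominent in cornea and airway epithelium, was scattered in both groups, at 15.4 to 37.2 CPM and 8.97 to 20.6 CPM (log2 fold change -0.77, SE 0.40, adjusted p = 0.0862), and passed under DESeq2 (adjusted p = 0.0461) and without naphthalene 3 (log2 fold change -1.01, adjusted p = 0.0436). Aldh18a1, which makes a proline precursor, was 14.9 ± 0.409 CPM and 18.2 ± 1.98 CPM (log2 fold change 0.29, adjusted p = 0.0825), and also passed without naphthalene 3 (0.36, adjusted p = 0.04). The mitochondrial amino acid enzymes Aldh4a1, Aldh6a1 and Aldh7a1 had log2 fold changes of -0.28, -0.17 and -0.26. Without naphthalene 1, Aldh4a1 and Aldh7a1 passed (log2 fold changes -0.41 and -0.36, adjusted p = 0.0305 and 0.0254). Values for Aldh4a1 are uncertain, since 45% of its 50-base windows also occur in the gene model Gm21969. Aldh16a1, Aldh1b1 and Aldh1l2 had log2 fold changes between 0.02 and 0.09.

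The 6 alcohol dehydrogenases, of which 3 were tested, summed to 160.4 ± 9.726 CPM in the controls and 162.8 ± 11.76 CPM after naphthalene. Adh1, which oxidises ethanol and retinol, was 74.2, 85, 68.8 and 77.1 CPM in the controls and 85, 93.3, 54.6 and 77.6 CPM after naphthalene (log2 fold change 0.03, SE 0.18, adjusted p = 0.912). Adh5, which oxidises the glutathione adduct of formaldehyde, was 58.0, 64.3, 68.9 and 63.2 CPM against 60.8, 66.3, 84.3 and 79.8 CPM (log2 fold change 0.19, SE 0.12, adjusted p = 0.234). Both were spread over overlapping ranges. Adh7, a retinol and ethanol dehydrogenase of epithelia, fell, with a 1.71-fold lower mean. Its controls were 15, 19.2, 20.1 and 25.8 CPM and its naphthalene libraries 11.2, 7.11, 10.5 and 18.1 CPM, so that naphthalene 4 lay above control 1 (log2 fold change -0.78, SE 0.32, edgeR adjusted p = 0.0382). Leaving out control 2, 3 or 4 or naphthalene 2 or 3 ended the call (adjusted p of 0.0647 to 0.118). It was also lost without naphthalene 1, where the adjusted p was just above the threshold, at 0.0500088.

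Fmo5 was the single monooxygenase measured, because the others lie on chromosome 1. It acts on aldehydes and ketones more than on the amines and sulfides that other family members oxidise. Its level was 45, 45, 47.4 and 47.1 CPM in the controls and 37.6, 30.9, 24.0 and 31.4 CPM after naphthalene. The controls lay within a narrow range and every naphthalene library lay below it, a 1.49-fold lower mean (log2 fold change -0.57, SE 0.13, edgeR adjusted p = 0.00651). This call was kept in all 17 alternatives.

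**Figure D2:**
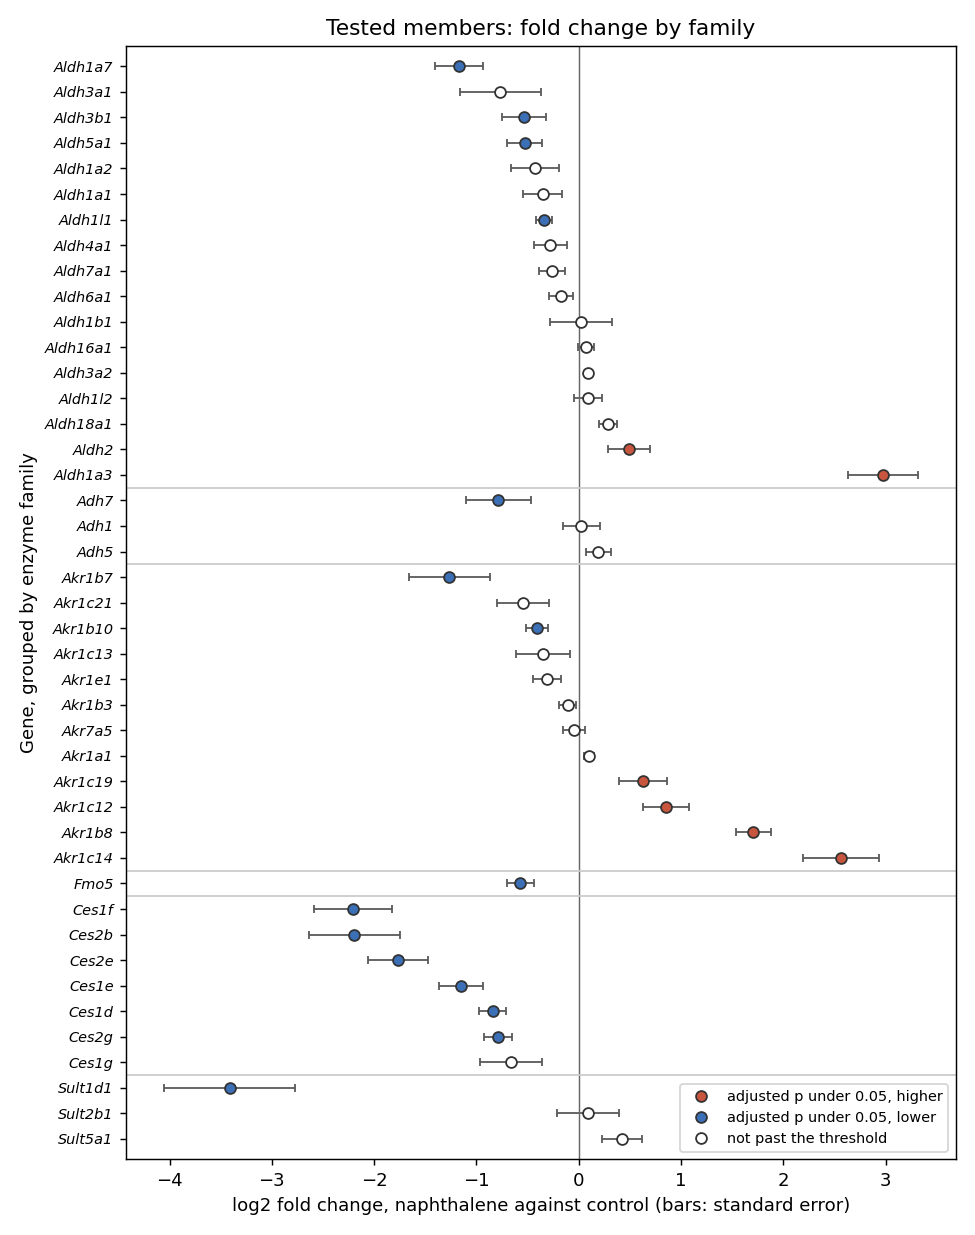
Log2 fold change of naphthalene against control, with its standard error as bars, for the 43 tested enzyme genes ordered by family and coloured by whether they passed the edgeR test. All 7 carboxylesterase genes lie below 0, the aldo-keto reductases spread from -1.26 to 2.57, and the aldehyde dehydrogenases from -1.17 to 2.97.

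The aldo-keto reductases, which reduce aldehydes and ketones with NADPH and in some members oxidise hydroxysteroids and dihydrodiols, changed in composition. Their summed level was 543.8 ± 23.79 CPM in the controls and 1307 ± 334.4 CPM after naphthalene. In CPM, which is not scaled for gene length, Akr1a1, the general aldehyde reductase, led the controls with 45.3% of the sum. After naphthalene Akr1c14 led, with 66.6%. Per kb of exon Akr1a1 stood at 173 and Akr1c14 at 46.2 CPM per kb in the controls, and at 186 and 274 after naphthalene. Akr1a1 itself was 250.3, 249.6, 227 and 258 CPM in the controls and 268, 272, 252 and 263 CPM after naphthalene, a difference that did not pass (log2 fold change 0.10, SE 0.05, adjusted p = 0.387).

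Akr1c14, the mouse 3-alpha-hydroxysteroid dehydrogenase, rose from 147 ± 35.1 to 871 ± 334 CPM. The controls were 139, 121, 198 and 131 CPM and the naphthalene libraries 416, 842, 1183 and 1042 CPM. The lowest naphthalene library, naphthalene 1, still stood above every control, and the mean was 5.92-fold higher (log2 fold change 2.57, SE 0.37, edgeR adjusted p = 0.000133). Akr1c14 belongs to a cluster of neighbouring Akr1c genes on chromosome 13, of which 5 were tested. It held 90.5% of the summed level of the Akr1c genes in the controls and 98.0% after naphthalene.

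The neighbours of Akr1c14 moved far less. Akr1c19 was 7.35, 7.18, 5.27 and 5.30 CPM in the controls and 6.55, 9.91, 12.9 and 9.71 CPM after naphthalene, and naphthalene 1 lay within the control range (log2 fold change 0.63, SE 0.24, adjusted p = 0.0488). Akr1c12 was near 1 CPM, at 0.896, 1.02, 0.967 and 1.15 CPM against 1.25, 1.96, 1.58 and 2.66 CPM, without overlap (log2 fold change 0.85, SE 0.22, adjusted p = 0.0495). Both stood close to the threshold: the call of Akr1c19 was lost in 12 of 17 alternatives and that of Akr1c12 in 14. Leaving out any single library other than naphthalene 1 ended both calls, with adjusted p values up to 0.142 for Akr1c19 (without naphthalene 3) and 0.117 for Akr1c12 (without control 1). Akr1c13 and Akr1c21, with log2 fold changes of -0.35 and -0.55, did not pass (adjusted p = 0.297 and 0.275). Akr1c12 and Akr1c13 have 28.6% of their 50-base windows in common, so reads may have been divided between them or discarded, and their values are uncertain. Akr1e1, a reductase gene next to this cluster, was 22.9 ± 2.64 and 18.6 ± 2.70 CPM and did not pass (log2 fold change -0.31, adjusted p = 0.109).

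The Akr1b group, the aldose reductase and its relatives on chromosome 6, split in direction. Akr1b8 rose from 13.9, 14.3, 13.4 and 17.0 CPM in the controls to 49.2, 51.0, 57.1 and 34.4 CPM after naphthalene, with no overlap and a 3.27-fold higher mean (log2 fold change 1.71, SE 0.17, edgeR adjusted p = 4.74e-05). Akr1b10, another aldose reductase relative, went from 13.3, 15.8, 16.3 and 17.5 CPM to 12.3, 11.9, 10.4 and 13 CPM (log2 fold change -0.40, SE 0.11, adjusted p = 0.0359). The pair had like levels in the controls, with a CPM ratio of Akr1b8 to Akr1b10 of 0.823 to 1.05, and separated after naphthalene to a ratio of 2.65 to 5.51. Akr1b7, known from adrenal gland and vas deferens, fell from 1.66 ± 0.680 to 0.668 ± 0.278 CPM. Its values were 1.52, 2.61, 1.49 and 1.0 CPM in the controls and 0.893, 0.783, 0.264 and 0.733 CPM after naphthalene, at few reads per library (log2 fold change -1.26, SE 0.40, adjusted p = 0.0345).

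Aldose reductase itself, Akr1b3, was the most abundant gene of the group in the controls and did not pass the test. It measured 62.5, 73.0, 68.4 and 62.1 CPM and, after naphthalene, 62.0, 57.7, 69.5 and 58.1 CPM (log2 fold change -0.11, SE 0.08, adjusted p = 0.441). Its values carry an extra uncertainty, because 59.9% of its 50-base windows recur in other transcripts, most of them in the gene model Gm6644. The calls of Akr1b10 and Akr1b7 were lost when some single libraries were left out. Omitting control 2, 3 or 4 or naphthalene 2 or 3 ended the call of Akr1b10 (adjusted p up to 0.108), and omitting control 1, 2 or 3 or naphthalene 2, 3 or 4 ended that of Akr1b7 (up to 0.124). Akr7a5, which reduces aldehydes such as those formed from aflatoxin, was 13.7 ± 1.62 CPM and 13.3 ± 1.33 CPM (log2 fold change -0.05, adjusted p = 0.817). The calls of Akr1c14 and Akr1b8 were kept in all 17 alternatives.

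**Figure D3:**
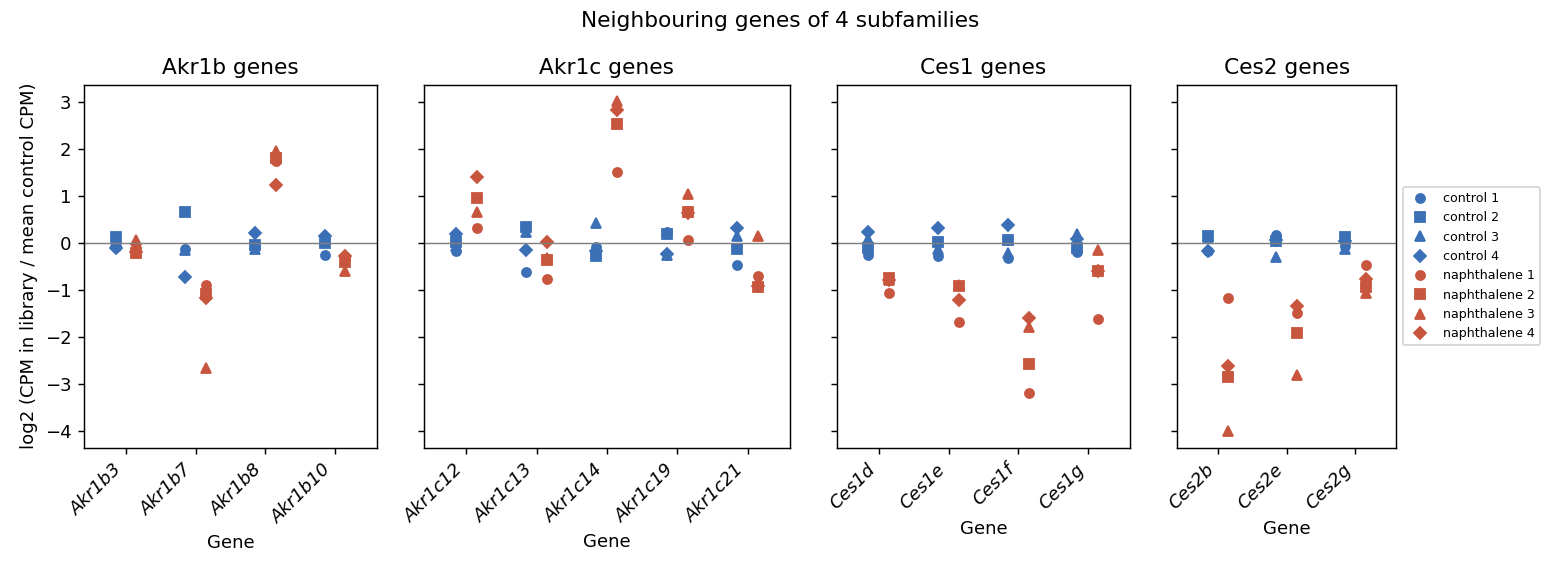
Log2 of the CPM in each library over the mean control CPM, for the tested genes of the neighbouring Akr1b, Akr1c, Ces1 and Ces2 groups, with 1 symbol per library and blue for control and red for naphthalene. Akr1b8 lies above its neighbours and Akr1c14 above its own after naphthalene, whereas the Ces1 and Ces2 genes lie below the control mean in every naphthalene library.

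Promoter sequences are shown for 2 pairs of neighbours, Akr1b8 with Akr1b10 and Akr1c14 with Akr1c19, because the members of each pair lie in the same cluster and moved by different amounts. Each runs 5′ to 3′ on the strand of its gene, from 250 bases before to 20 bases after the start of the gene, as RefSeq gives it on the build GRCm38.p6, which is not the build of the counts. The positions are chr6:34353896-34354165 (plus strand) for Akr1b8, chr6:34383997-34384266 (plus strand) for Akr1b10, chr13:4059341-4059610 (plus strand) for Akr1c14 and chr13:4233490-4233759 (plus strand) for Akr1c19. Capitals mark a match to TGACNNNGC, the core of the antioxidant response element bound by NRF2, on either strand.
Akr1b8: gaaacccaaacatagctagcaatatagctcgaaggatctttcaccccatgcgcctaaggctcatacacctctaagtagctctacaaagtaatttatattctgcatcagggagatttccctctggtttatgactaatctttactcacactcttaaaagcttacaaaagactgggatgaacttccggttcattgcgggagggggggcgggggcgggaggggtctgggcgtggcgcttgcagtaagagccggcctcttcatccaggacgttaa
Akr1b10: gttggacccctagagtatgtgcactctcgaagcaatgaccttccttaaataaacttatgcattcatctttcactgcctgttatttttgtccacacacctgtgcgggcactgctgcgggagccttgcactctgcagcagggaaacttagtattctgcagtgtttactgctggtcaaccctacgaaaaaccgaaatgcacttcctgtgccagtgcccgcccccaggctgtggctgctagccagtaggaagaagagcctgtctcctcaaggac
Akr1c14: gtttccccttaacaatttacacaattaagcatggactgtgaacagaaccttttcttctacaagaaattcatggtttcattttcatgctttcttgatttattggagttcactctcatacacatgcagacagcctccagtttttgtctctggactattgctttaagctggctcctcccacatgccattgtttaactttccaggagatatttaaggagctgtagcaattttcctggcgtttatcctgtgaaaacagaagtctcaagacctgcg
Akr1c19: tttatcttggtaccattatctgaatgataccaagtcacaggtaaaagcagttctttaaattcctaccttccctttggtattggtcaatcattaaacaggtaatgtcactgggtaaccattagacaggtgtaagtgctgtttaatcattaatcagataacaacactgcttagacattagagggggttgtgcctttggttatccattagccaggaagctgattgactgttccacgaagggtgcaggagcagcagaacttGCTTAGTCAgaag
When the 300-base windows (to 50 bases after the start) were aligned end to end, 51.2% of the aligned columns were identical between Akr1b8 and Akr1b10 and 50.9% between Akr1c14 and Akr1c19, against 49.3% for Akr1c14 and Akr1b8, which belong to different groups. By this measure the promoters of neighbours were about as unlike each other as this pair from different groups.

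The table of RefSeq promoters held 93 of the 113 enzyme genes. TGACNNNGC occurred on either strand, in windows of 300 bases, in 14% of all 27025 genes with a window. It occurred in 2 of the 34 tested members with a window, Akr1c19 and Aldh1a2. Akr1c19 carried it at position +8 from the start, on the minus strand, and it was the only match among the 4 genes that rose and have a window. Among the 12 that fell and have a window, 0 held it. The related letters TGACTCA, the AP-1 core, which overlap TGACNNNGC where GC follows, occurred in 5.95% of all genes with a window and in the tested members Adh7, Aldh1a1 and Sult2b1. A match is a description of the letters, and no match says only that they are not in this window.

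Carboxylesterases fell in 6 of 7 tested genes. Their summed level was 682.0 ± 93.95 CPM in the controls and 373.6 ± 35.77 CPM after naphthalene, and Ces1d, which also hydrolyses stored triglycerides, made up 90.7% and 92.3% of it. The controls of Ces1d were 522, 574, 655 and 723 CPM and the naphthalene libraries 295, 372, 357 and 357 CPM. No naphthalene library reached the lowest control, and the mean was 1.79-fold lower (log2 fold change -0.84, SE 0.13, edgeR adjusted p = 0.000633).

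Its neighbours on chromosome 8 fell as well, some of them further. Ces1f, a relative of Ces1d with lipase activity, went from 10.8, 14.2, 11.8 and 17.7 CPM to 1.49, 2.28, 3.95 and 4.49 CPM, a 4.46-fold lower mean (log2 fold change -2.20, SE 0.38, adjusted p = 0.000436). Ces1e was 12.2, 14.9, 13.4 and 18.2 CPM in the controls and 4.58, 7.76, 7.91 and 6.32 CPM after naphthalene, 2.21-fold lower (log2 fold change -1.15, SE 0.22, adjusted p = 0.00149). The groups were fully separated for both genes. Ces1g, an esterase best known for lipid handling in liver and intestine, was 5.11, 5.37, 6.59 and 6.16 CPM against 1.90, 3.85, 5.27 and 3.85 CPM. Naphthalene 3 overlapped its controls, and the difference did not pass (log2 fold change -0.66, SE 0.31, adjusted p = 0.0855). Without naphthalene 3 it passed, at a log2 fold change of -0.88 (adjusted p = 0.0391).

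All 3 tested Ces2 genes, whose products favour esters with a small acyl and a large alcohol part, fell. Ces2g, the most abundant of them, was 20.1, 22.9, 19.2 and 21.7 CPM in the controls and 15.1, 11, 10.1 and 12.3 CPM after naphthalene, 1.73-fold lower (log2 fold change -0.79, SE 0.14, adjusted p = 0.00194). Ces2e was 4.12, 3.77, 2.99 and 3.87 CPM against 1.31, 0.978, 0.527 and 1.47 CPM, 3.45-fold lower (log2 fold change -1.77, SE 0.30, adjusted p = 0.00109). Ces2b was 2.51, 3.12, 3.08 and 2.51 CPM against 1.25, 0.391, 0.176 and 0.458 CPM, 4.93-fold lower (log2 fold change -2.19, SE 0.44, adjusted p = 0.0027). For Ces2b this rests on 28 to 43 counts per control library and 2 to 21 counts per naphthalene library, with naphthalene 1 the highest of its group. Among these 3 genes the fall was larger where the control level was smaller. The 4 tested Ces1 genes did not follow that order. Ces1g had the lowest control mean of them (5.81 CPM) and the smallest log2 fold change in size (-0.66). All 6 carboxylesterase calls were kept in all 17 alternatives, which include leaving out each library.

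Many carboxylesterases are best known from the liver, so hepatocyte markers were summed as well. The list summed to 0.2865 to 6.239 CPM in the controls and 0.4578 to 1.406 CPM after naphthalene, and 0 of its genes reached the test. Its members Apoa2 and Cps1 lie on chromosome 1 and were not measured. A list of 5 adipocyte markers summed to 16.26 to 31.64 CPM in the controls and 17.22 to 26.19 CPM after naphthalene, with 0 genes called. The part of either list in the carboxylesterase results was not tested.

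Among the sulfotransferases, Sult1d1, which sulfates catecholamines and other small phenols, showed the largest fold decrease of the tested members. The controls were 26.6, 34.6, 73.5 and 71.3 CPM and the naphthalene libraries 1.79, 2.80, 5.71 and 9.89 CPM. The controls formed a low and a high pair, and the naphthalene libraries all lay below the lower pair. The mean fell from 51.5 ± 24.4 to 5.05 ± 3.63 CPM, 10.2-fold lower (log2 fold change -3.41, SE 0.64, edgeR adjusted p = 0.000561), at 297 to 996 counts per control library and 30 to 108 per naphthalene library. The call was kept in all 17 alternatives, in which the log2 fold change ran from -4.49 to -2.89. The promoter of Sult1d1 held 0 matches to TGACNNNGC.

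The other 2 tested sulfotransferases of the chosen genes did not pass. Sult5a1, whose substrates are poorly known, was 7.89, 6.97, 8.61 and 6.80 CPM in the controls and 10.1, 11.8, 6.94 and 11.6 CPM after naphthalene (log2 fold change 0.42, SE 0.19, adjusted p = 0.106). Naphthalene 3 stood within the control range and the others above it, and without naphthalene 3 the gene passed (log2 fold change 0.56, adjusted p = 0.0239). Sult2b1, the cholesterol sulfotransferase, was 2.60, 2.61, 1.76 and 1.29 CPM against 1.85, 3.26, 1.76 and 1.83 CPM (log2 fold change 0.09, SE 0.30, adjusted p = 0.852). The sum of the family was 62.76 ± 23.75 CPM in the controls, with 82.1% of it from Sult1d1, and 19.09 ± 5.165 CPM after naphthalene, with 52.9% from Sult5a1. Sult1a1, which the choice of genes leaves out, is not part of these sums and rose from 49.1 ± 4.85 to 124 ± 5.53 CPM, without overlap (log2 fold change 1.34, edgeR adjusted p = 9.24e-06). With it the direction of the sum turns, from 111.9 ± 25.69 CPM in the controls to 143.3 ± 7.15 CPM after naphthalene, and Sult1d1 holds 46% and 3.52% of it.

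Glucuronosyltransferases could not be compared. The Ugt1a genes lie on chromosome 1, and of the 10 Ugt2 genes 9 had too few counts to test and Ugt2a2 was listed at 0. The Ugt2 genes summed to a mean of 0.3402 CPM in the controls and 0.9843 CPM after naphthalene. Naphthalene 1 and 2 held 0.2976 and 0.3913 CPM, and naphthalene 3 and 4 held 1.142 and 2.106 CPM. No change was read from these low counts.

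Level per length shows where the changes stand in the enzyme complement of the lung, since genes can be compared with each other only per kb of exon. The sums, shares and ratios in CPM given above do not account for length. In CPM per kb, Aldh1a1 (499), Ces1d (309) and Akr1a1 (173) led the controls, followed by Aldh2 (73.0), Aldh1a7 (59.0), Adh1 (51.1), Akr1b3 (47.9) and Akr1c14 (46.2). The last 4 lie within 1.5 times of each other. After naphthalene the leading level per kb was again that of Aldh1a1 (391), followed by Akr1c14 (274), Akr1a1 (186) and Ces1d (172). Akr1c14 thus moved from rank 8 to rank 2 of the 43 tested genes. Akr1b8 moved from rank 18 (10.8 CPM per kb) to 9 (35.3), and Aldh1a3 from the lowest level of all, 0.533 CPM per kb, to rank 25 (4.25). Sult1d1 dropped from rank 12 (21.3 CPM per kb) to 32 (2.09), and Ces2b ended lowest, at 0.167 CPM per kb.

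**Figure D4:**
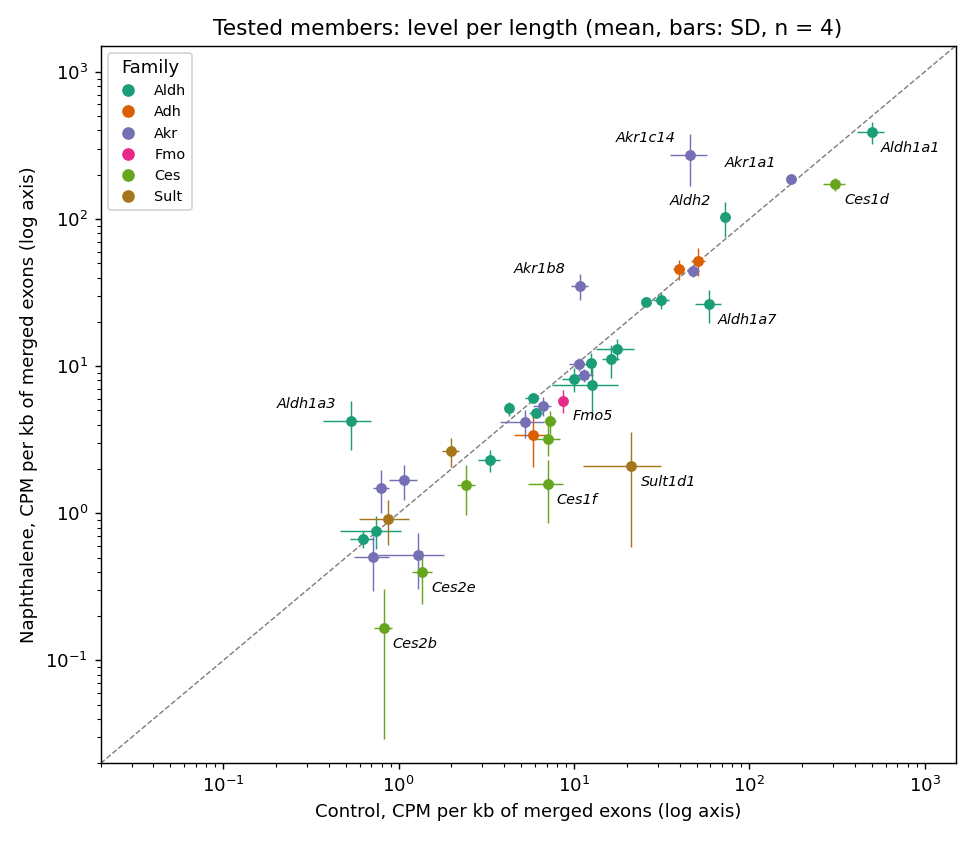
Mean level per kb of merged exons in the control libraries (horizontal, log axis) and in the naphthalene libraries (vertical, log axis) of the 43 tested enzyme genes, coloured by family, with SD bars (n = 4) and a dashed line of equal level. Akr1c14, Akr1b8 and Aldh1a3 stand above the line, and Sult1d1, Ces1f, Ces2e and Ces2b below it.

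The 46 members with low counts reached at most 17 counts in any library (Ces1b, control 2). In the controls 20, 20, 16 and 19 of them had at least 1 count, and in naphthalene libraries 1 to 4 it was 17, 20, 33 and 37. Naphthalene 3 and 4 thus held counts for more of these genes than any other library. The same 2 libraries held counts for more odorant and vomeronasal receptor genes, 367 and 500 of 1472, against 103 to 178 in the other 6 libraries, and its part in the low counts was not tested. Of the 46 genes, 19 had counts in naphthalene libraries alone, and 5 of these had a count in naphthalene 1 or 2. Ces1c, an esterase secreted into mouse plasma, is an example, with 5 and 6 counts in naphthalene 3 and 4 and 0 in the other 6 libraries. No change was read from any of these genes.

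Other genes of the same pathways were examined in 8 lists. Of 77 listed genes, 4 on chromosome 1 (Ephx1, Bpnt1, Rdh10 and Nr1i3) were listed at 0, 8 had low counts and 65 were tested. Of these, 12 rose and 11 fell, 35.4% against 28.7% of all tested genes, with a median log2 fold change of 0.00.

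Genes that supply the cofactors of conjugation and oxidation were examined first. Of 10 tested genes for the synthesis of UDP-glucuronic acid and of the sulfate donor PAPS, 2 rose and 0 fell. This share of 20% compares with 14.1% of all tested genes higher and 28.7% called in either direction. Ugdh, which makes UDP-glucuronic acid, went from 46.3, 42.7, 46.0 and 44.6 CPM in the controls to 57.0, 63.3, 75.8 and 72.2 CPM after naphthalene, with no overlap (log2 fold change 0.58, SE 0.10, edgeR adjusted p = 0.00212). Ugp2, the enzyme before it, rose from 124 ± 11 to 157 ± 22.7 CPM (log2 fold change 0.34, adjusted p = 0.0452), a call lost in 9 of 17 alternatives, among them when control 1, 2 or 4 or naphthalene 2, 3 or 4 was omitted (adjusted p up to 0.123). Of 6 tested genes for the molybdenum cofactor of aldehyde oxidases and for the related xanthine oxidoreductase, 4 rose and 0 fell. Their share was 66.7%, against 14.1% of all tested genes higher and 28.7% called in either direction. Xdh, the xanthine oxidoreductase, stood at 367, 313, 329 and 304 CPM in the controls and 676, 751, 631 and 542 CPM after naphthalene, 1.98-fold higher without overlap (log2 fold change 0.99, SE 0.12, adjusted p = 0.000181). The cofactor genes Mocs1, Mocs2 and Mocos rose by log2 fold changes of 0.52, 0.44 and 0.45 (adjusted p = 0.00385, 0.0248 and 0.026). The last 2 calls were lost without control 1, 2 or 4 or naphthalene 3, and that of Mocos also without naphthalene 2, at adjusted p values up to 0.079 for Mocs2 and 0.08 for Mocos.

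Enzymes that share substrates with the families moved in both directions, with 44.4% of the tested reductases, 12.5% of the hydrolases and 28.6% of the conjugating enzymes called, against 28.7% of all tested genes. Among 9 tested carbonyl and quinone reductases, Nqo1, the quinone reductase, rose from 11.6 ± 2.49 to 36.0 ± 17.5 CPM (log2 fold change 1.63, adjusted p = 0.00239) and Cbr3 rose as well (log2 fold change 0.50, adjusted p = 0.0432), while Cbr2 and Dcxr fell. Cbr2, a carbonyl reductase abundant in mouse lung, was 1447, 1645, 1440.0 and 2233 CPM in the controls and 704, 1075, 1173 and 806 CPM after naphthalene, with no overlap (log2 fold change -0.85, adjusted p = 0.00713). The call of Cbr3 was lost in 7 of 17 alternatives, among them those that omit control 1, 2 or 3 or naphthalene 2 or 3 (highest adjusted p 0.126). Of 8 other hydrolases only Pon1, the paraoxonase, passed, and it fell from 99.9 ± 30.2 to 29.7 ± 8.46 CPM (log2 fold change -1.76, adjusted p = 0.000476). Of 7 other conjugating enzymes, Tst, a sulfur transferase that detoxifies cyanide, and Ugt8a, a galactosyltransferase of myelin lipids, fell (log2 fold changes -0.92 and -1.66, adjusted p = 0.000617 and 0.0096).

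In the retinoid pathway, to which Aldh1a1, Aldh1a2 and Aldh1a3 belong, 4 of 9 tested genes fell and 0 rose. Their share was 44.4%, against 14.6% of all tested genes lower and 28.7% called in either direction. Lrat, which stores retinol as an ester, was 82.8, 155, 142 and 93.0 CPM in the controls and 34.5, 17, 8.35 and 41.9 CPM after naphthalene, with no overlap (log2 fold change -2.22, SE 0.57, edgeR adjusted p = 0.00226). Rarb, a retinoic acid receptor, fell from 24.6 ± 1.86 to 13.5 ± 2.56 CPM (log2 fold change -0.87, adjusted p = 0.00118). Dhrs3, which reduces retinaldehyde, had a log2 fold change of -0.42 (adjusted p = 0.0494), a call lost in 9 of 17 alternatives, among them without any single library other than naphthalene 1 (adjusted p up to 0.14). Aldh1a3 thus rose while the 4 called genes of this list fell. Of the 9 tested genes of the list, 2 had a positive log2 fold change, and neither passed the test.

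Among 9 tested regulators of these enzymes 2 rose and 2 fell (44.4%, against 28.7% of all tested genes). Nr1i2, the xenobiotic receptor PXR, and Ahr, the aryl hydrocarbon receptor, fell (log2 fold changes -1.38 and -0.52, adjusted p = 0.0203 and 0.0258), and Tiparp, a target of AHR, and Keap1, the inhibitor of NRF2, rose (0.60 and 0.40, adjusted p = 0.0336 and 0.0321). All 4 calls were lost when some single libraries were left out. The adjusted p of Nr1i2 reached 0.0545 without control 3 and 0.0509 without naphthalene 2. That of Ahr reached 0.0679 without naphthalene 2, and its call was also lost without control 1, 2 or 3 or naphthalene 3. Tiparp reached 0.0994 without control 1, and was also lost without control 2 or 4 or naphthalene 3 or 4. Keap1 reached 0.106 without naphthalene 2, and was also lost without control 1, 2, 3 or 4 or naphthalene 3. Of 7 tested export transporters 2 rose and 0 fell. This share of 28.6% compares with 14.1% of all tested genes higher and 28.7% called in either direction. Abcb1b, a drug efflux pump, went from 7.14 ± 0.817 to 22.7 ± 4.42 CPM (log2 fold change 1.66, adjusted p = 5.53e-05) and Abcg2, which also exports sulfate conjugates, from 46.8 ± 7.76 to 70.5 ± 7.54 CPM (log2 fold change 0.59, adjusted p = 0.00678).

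**Figure D5:**
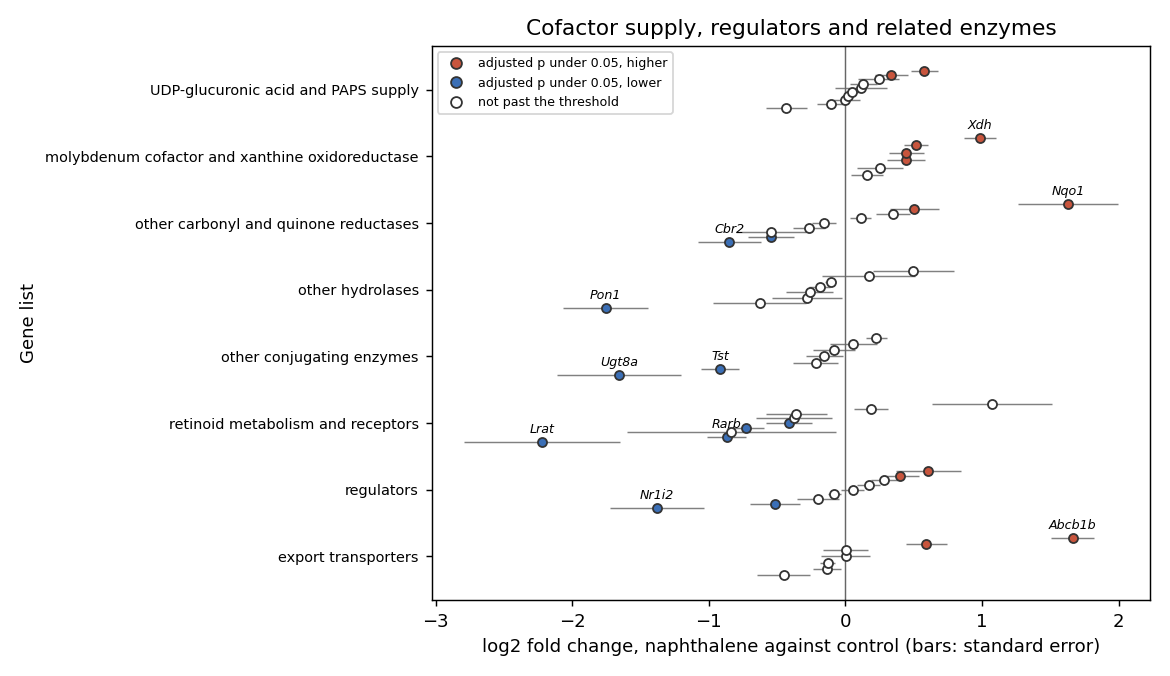
Log2 fold change of naphthalene against control, with its standard error as bars, of the 65 tested genes in 8 lists of related pathways, filled where the edgeR adjusted p was under 0.05. The molybdenum cofactor list has 4 filled points to the right of 0, and the retinoid list has 4 filled points to the left.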

How the data were processed

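The libraries, 4 per group, were made from DNase-treated total RNA of the right cranial lobe with a stranded kit, per the labels' protocols. The authors deposited raw counts per gene symbol. Per the submitters' processing notes the build was mm39 and the tools were edgeR 4.2.1, featureCounts 2.0.6, HISAT2 2.2.1 and Trim Galore 0.6.7, with no role stated. The annotation, the strand setting and the handling of multiply mapped reads were not given in the sources used here, so values of genes with near-identical copies are uncertain.

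Library names in the labels gave each column its mouse, with 0 columns left over. The test used edgeR 4.0.16 in R 4.3.3 (TMM scaling, filterByExpr with a minimum count of 10 and a minimum total of 15, quasi-likelihood test on group alone), adjusted by Benjamini-Hochberg over all 14192 tested genes, with a threshold of 0.05. The standard error of a fold change is that of the group difference in mean log2 CPM (prior count 2). On simulated data with 14097 tested genes the procedure recovered 82% of 50 genes at a log2 change of 1, 66.7% of 48 at -1, 100% of 50 at 2 and 95.9% of 49 at -2, with 11 false calls among 181 calls. Only these genes were changed in the simulation, and its counts were drawn independently. In the data 28.7% of the tested genes were called, so these rates need not hold there. Within groups, the chi-square of the counts of 2 libraries was 5.57 to 48.5 times its degrees of freedom in all 12 pairs, so each library was counted as 1 replicate.

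Every tested member may be named. Values in each library are given for up to 6 called genes of smallest p and up to 2 uncalled genes of highest level per family, and up to 4 called genes are named per pathway list. The members and lists were chosen with earlier results of these data known. Alternatives were upper quartile and RLE scaling, no filter, a CPM of 1 in 4 libraries, a replicate block, DESeq2 1.42.0, voom in limma 3.58.1 and each library left out, plus 2 added after seeing the data: without control 3 and naphthalene 1, and without naphthalene 3 and 4. Chromosomes and lengths (merged exons) came from GENCODE M21 and RefSeq on GRCm38.p6, another build than mm39. All 113 members matched by symbol. Results for a few single genes are left out of the text.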

Additional observations from a re-analysis of the deposited data

Results flagged for a closer look

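Among 132 groups of 4 libraries examined for a library that stands apart from the others, 4 were found, and chance alone gives about 1 in 20. Akr1c21 measured 0.966 CPM in naphthalene 3 and 0.457 to 0.536 CPM in the other naphthalene libraries. Aldh1b1 measured 2.41 CPM in naphthalene 2 and 1.47 to 1.58 CPM in the others. For Aldh5a1, naphthalene 4 was low, at 9.71 CPM against 13.6 to 14.4 CPM in the others. Sult2b1 measured 3.26 CPM in naphthalene 2 and 1.76 to 1.85 CPM in the others.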

How the results depend on the processing

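Of the 21 called members, 12 kept their call and direction in all 17 alternatives: Akr1b8, Akr1c14 and Aldh1a3 (higher), and Aldh1a7, Fmo5, Sult1d1, Ces1d, Ces1e, Ces1f, Ces2b, Ces2e and Ces2g (lower). The other 9 lost it in at least 1, and 9 uncalled members gained one. The 6 higher members became 3 under upper quartile scaling and 3 under voom, and 3 to 6 when a library was left out, with 3 when it was control 1, 2, 3 or 4 or naphthalene 2, and the cause was not tested. The 15 lower members were 10 to 17 across alternatives. The 12 higher pathway genes became 6 to 14 when a library was left out, 6 without control 1, control 2 or naphthalene 3 and 7 without control 4, and the 11 lower ones became 17 without control 3 and naphthalene 1. Signs turned in 5 uncalled members. Adh1 had a log2 fold change of -0.0025 under upper quartile scaling, -0.065 without control 3 and naphthalene 1 and -0.073 to 0.16 with a library left out. Aldh1b1 had -0.0085, -0.058 and -0.18 to 0.19 in the same alternatives. Akr7a5 had 0.055 and Aldh1l2 -0.048 without naphthalene 3 and 4, and with a library left out Akr7a5 ran from -0.097 to 0.037 and Sult2b1 from -0.18 to 0.23.

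Same-numbered libraries had deviations correlated at 0.29, 0.03, 0.18 and -0.09, and not every library correlated best with that of its own number, so the numbers were not treated as pairs. With the number as a replicate block, 4363 genes passed in place of 4075, members were 4 higher and 17 lower, and Aldh1a1 (log2 fold change -0.35, adjusted p = 0.0366) and Ces1g (-0.70, adjusted p = 0.042) passed. Akr1c12 and Akr1c19 lost their calls (adjusted p = 0.0523 and 0.0713), as did the pathway gene Dhrs3 (adjusted p = 0.0561).

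The 4 libraries per group, the unknown dose and time, the chromosome 1 genes that were not measured and low counts for 46 members limit what can be compared.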
